A study of Mus musculus with 4 samples.

Results

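The transcripts described here are predicted gene Gm3395, annotated on the array as ENSMUST00000172100, and the full-length cDNA clones AK145700, AK145555, AK167004 and AK145750, which the study's annotation assigns to a mouse blastocyst library. They are 5 of the 37823 accessions on the array, and 10 of the 55562 probes that gave a value on all 4 arrays read them: 3 probes for ENSMUST00000172100, 3 for AK167004, 2 for AK145750, and 1 each for AK145700 and AK145555. The members were selected on their large rise over parental ES in both Nup98-HoxA9 clones. Their ratios in these clones are therefore given as a description and were not tested.

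Gene expression was measured in mouse embryonic stem (ES) cells with 1 SurePrint G3 Mouse GE 8×60K array (one colour) for each of 4 lines. Parental ES is the EB3 line, without a Tol2 transgene. Nup98-HoxA9 ES clones #1 and #9 are independent clones that stably express FLAG-tagged Nup98-HoxA9, a leukemia fusion of the N-terminal phenylalanine-glycine repeats of the human nucleoporin Nup98 with the C-terminus of the homeodomain protein HoxA9. The HoxA9-Ct ES clone expresses the C-terminal HoxA9 part alone, homeodomain included. The transgenes were brought in by Tol2 transposons, and colonies were picked after selection with hygromycin B, so each transgenic line is 1 clone and differs from parental ES by selection as well as by its transgene. All lines were grown with leukemia inhibitory factor (LIF), and their passage is not given in the sources used here.

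ES cells derive from the inner cell mass of the blastocyst and express many transcripts of the early embryo. Names that begin with Gm and a number stand for genes predicted from the mouse genome sequence, most of which have no assigned function, and accessions that begin with AK here stand for cDNA clones that were sequenced in full without being tied to a named gene. The function of these transcripts and the protein they may encode were not examined here, since array descriptions were not used. The RefSeq gene table was searched by RefSeq transcript accession only, which AK and ENSMUST accessions cannot match. Whether the 5 accessions belong to a RefSeq gene was therefore not examined. Their probe sequences and positions in the genome were not analysed here. Whether the 10 probes bind separate transcripts or share target sequence was not tested, and they are not counted as independent measurements.

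Each member probe is printed as 1 spot on each array. Values are the processed signal of the Feature Extraction software, an intensity with background and spatial trend removed, and ratios are log2 differences after each array was scaled to the 75th percentile of its 59305 spots outside the controls (229 for parental ES, 222 and 253 for clones #1 and #9, and 209 for HoxA9-Ct ES). The software called between 49.9% and 53.0% of these spots well above background per array. No member spot was saturated or marked as an outlier. Error of a single spot is given as the error that the software models for it, which does not cover the difference between arrays or cultures. Signals of different probes depend on their binding, and those of the member probes were not set against each other.

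In the ES cells, all 8 pluripotency markers examined (Pou5f1, Nanog, Sox2, Zfp42, Esrrb, Klf4, Tdgf1 and Dppa5a) were well above background in every line, with log2 ratios to parental ES between -0.40 and 0.71. Markers of other cell types also differed between the lines. The 5 primitive endoderm markers (Gata4, Gata6, Sox17, Pdgfra and Sox7) had log2 ratios of 1.22 to 2.62 in clone #1, 1.59 to 2.77 in clone #9 and -2.94 to 0.24 in HoxA9-Ct ES, and neither Pdgfra in parental ES nor Sox17 and Pdgfra in HoxA9-Ct ES passed the background call. Their summed signal, in units of the 75th percentile, was 0.828 in parental ES, 3.15 and 3.78 in clones #1 and #9, and 0.466 in HoxA9-Ct ES. This sum and those below add signals of different probes, so they follow the brightest ones and do not measure the amount of a cell type. For the trophectoderm markers (Cdx2, Eomes, Elf5, Gata3 and Krt7) the log2 difference of clone #9 minus clone #1 was 0.62, -0.65, -1.32, 3.04 and 2.27. Elf5 in clone #9 and Gata3 in clone #1 were not well above background. The sum of the 5 was 0.816, 1.39, 1.42 and 1.1 for parental ES, clones #1 and #9 and HoxA9-Ct ES. In the same order, 2, 4, 4 and 1 of the 5 were well above background. Of the markers of 2-cell-like cells, 4 of 5 had a named probe (Zscan4c, Tcstv1, Tcstv3 and Zfp352), and their sum, in the same order of lines, was 26.7, 14.4, 36.7 and 24.3. Of these, Zscan4c was 4.82 higher in clone #9 than in clone #1 on the log2 scale, Tcstv1 and Tcstv3 were well above background in clone #9 and not in clone #1, and the difference for Zfp352 was -0.33. Clone #9 was above clone #1 at 3 of these 4, at all 5 primitive endoderm markers (by 0.15 to 0.36) and at all 10 member probes. The trophectoderm markers went both ways, as given above, and so did the 8 pluripotency markers (-0.60 to 0.27 for clone #9 minus clone #1). To parental ES, the log2 ratios of Zscan4c, Tcstv1, Tcstv3 and Zfp352 were -2.90, -3.43, -2.86 and -0.55 in clone #1. In clone #9 they were 1.92, 1.06, 1.54 and -0.88. All 10 member probes were above parental ES in both clones. The part of these cell types in the members' signals was not tested, and in bulk RNA fewer cells of a type and less RNA per cell cannot be told apart.

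The signals of all 10 member probes lay in the same order of groups: both Nup98-HoxA9 clones were above parental ES and above HoxA9-Ct ES, and clone #9 was above clone #1. At the measured signals, all 10 exceeded the scaled parental signal by more than 10-fold in both clones, against 0.09% of all probes (50 of 55562), a count that the choice of the members fixes. The median log2 ratio of the 10 probes was 5.36 in clone #1 and 6.11 in clone #9, beside -0.10 and -0.27 over all probes, and it was 5.52 and 6.16 for the 6 probes that every array called well above background. With normexp background correction in place of the processed signal, 5 of the 10 exceeded 10-fold in both clones, against 0.018% of all probes, and the medians of the 10 were 3.74 and 4.57. The parental signal was well above background for 6 of the 10 probes, and the fold is a lower bound at the other 4, except A_55_P2114158. The bound takes the dimmest parental signal that passed the well-above-background call, or the probe's own signal where that is higher. The latter holds for A_55_P2114158, whose fold is the measured one and not a lower bound. Because this probe failed the call although it lay above the dimmest passing signal, that signal is not a strict limit. The bounds given here as "at least" are therefore nominal.

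**Figure D1:**
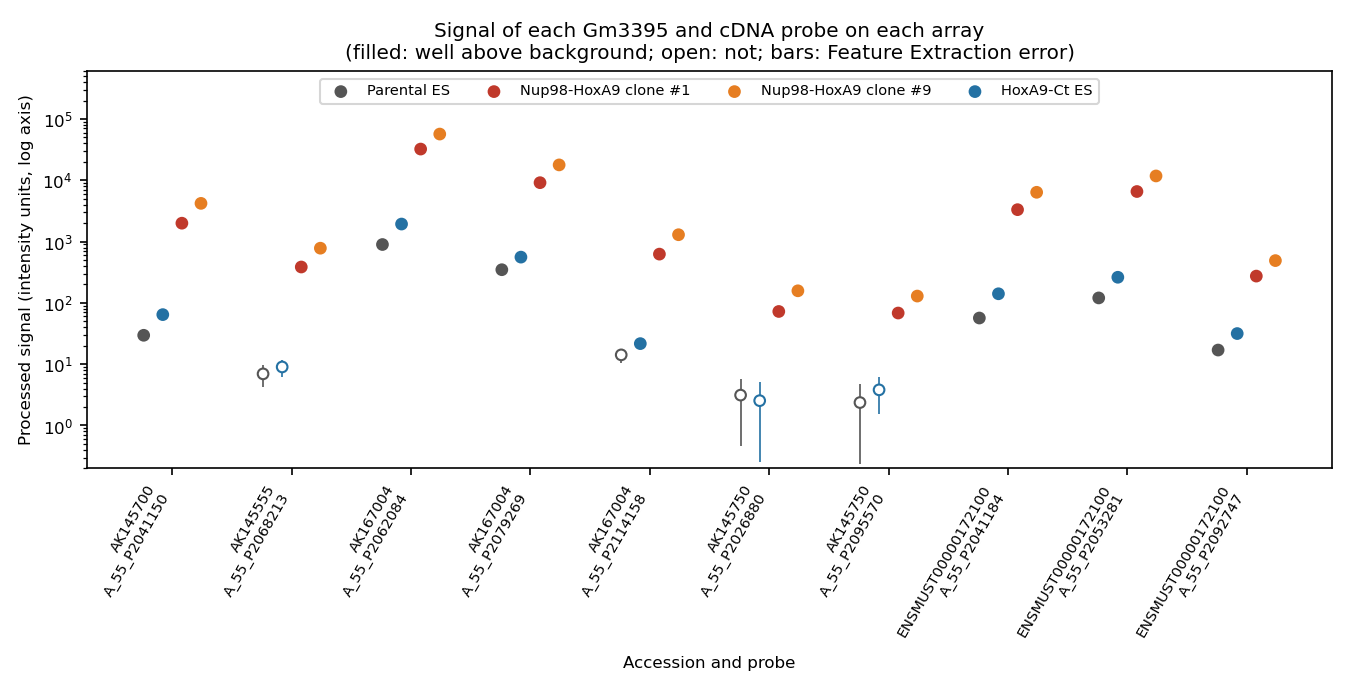
Processed signal (intensity, log axis) of the 10 member probes on the 4 arrays, 1 point per array, with the error modelled by Feature Extraction as bars; filled points are well above background and open points are not. At every probe both Nup98-HoxA9 clones (red and orange) lie above parental ES (grey) and HoxA9-Ct ES (blue), with clone #9 the highest.

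Gm3395, named from the study's annotation, was read by 3 probes of ENSMUST00000172100, all well above background on all 4 arrays. A_55_P2053281 had a signal of 120 in parental ES, 262 in HoxA9-Ct ES, 6559 in clone #1 and 11772 in clone #9. A_55_P2041184 had 56.6, 141, 3317 and 6370 in the same order. A_55_P2092747 had 17.0, 31.6, 273 and 489. The lines kept the same order at each of these probes, and no line overlapped another by the modelled error, which was at most 19.2% of the signal. The size of the rise differed between the probes: the log2 ratio was 5.81 in clone #1 and 6.47 in clone #9 for A_55_P2053281, 5.92 and 6.67 for A_55_P2041184, but 4.05 and 4.71 for A_55_P2092747, the lowest of the 6 member probes well above background in parental ES. The mean of the clones exceeded parental ES 70.5-fold, 78.5-fold and 20.8-fold, with an SD between the clones of 0.46, 0.53 and 0.46 on the log2 scale (n = 2 clones).

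The AK167004 cDNA also had 3 probes. A_55_P2062084 had a signal of 896 in parental ES, 1932 in HoxA9-Ct ES, 32315 in clone #1 and 56787 in clone #9. Its median pixel in clone #9 was 59968, under the ceiling of 778550 that the scanner file gives for saturation. A_55_P2079269 had 348 in parental ES, 558 in HoxA9-Ct ES, 9140 in clone #1 and 17821 in clone #9. Both of these probes were well above background on every array, with log2 ratios of 5.22 and 5.84 for A_55_P2062084 and 4.76 and 5.54 for A_55_P2079269 in clones #1 and #9. The remaining probe, A_55_P2114158, had 14.2 in parental ES (not well above background) and 21.6 in HoxA9-Ct ES, against 624 in clone #1 and 1294 in clone #9. Its clone mean was 61.3-fold above parental ES at the measured signals, and the modelled error of the parental signal was 25.7%.

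AK145700 was read by A_55_P2041150 at 29.6 in parental ES, 64.3 in HoxA9-Ct ES, 1995 in clone #1 and 4202 in clone #9. All 4 values were well above background, and the log2 ratios were 6.12 and 7.01 in clones #1 and #9, with their mean 94.6-fold above parental ES (SD 0.63, n = 2 clones). These ratios were the largest among the 6 member probes with a parental signal well above background. Of the members, this probe alone lies among the final eighth of spot rows.

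AK145555 and AK145750 were not well above background in either parental or HoxA9-Ct ES, so no fold is given between these lines. The AK145555 probe, A_55_P2068213, had 6.95 in parental ES, 9.01 in HoxA9-Ct ES, 385 in clone #1 and 780 in clone #9, at least 44.8-fold above parental ES for the mean of the clones. For AK145750, A_55_P2026880 had 3.13, 2.54, 72.4 and 157 and A_55_P2095570 had 2.37, 3.81, 68.3 and 129 in the same order. The modelled error in parental ES was 85.1% and 100.3% of the signal at these probes, and their bounds, at least 8.72-fold and at least 7.68-fold, fell short of 10-fold. With every dim parental value at its bound, 8 of the 10 probes exceeded 10-fold in both clones, against 0.0504% of all probes.

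**Figure D2:**
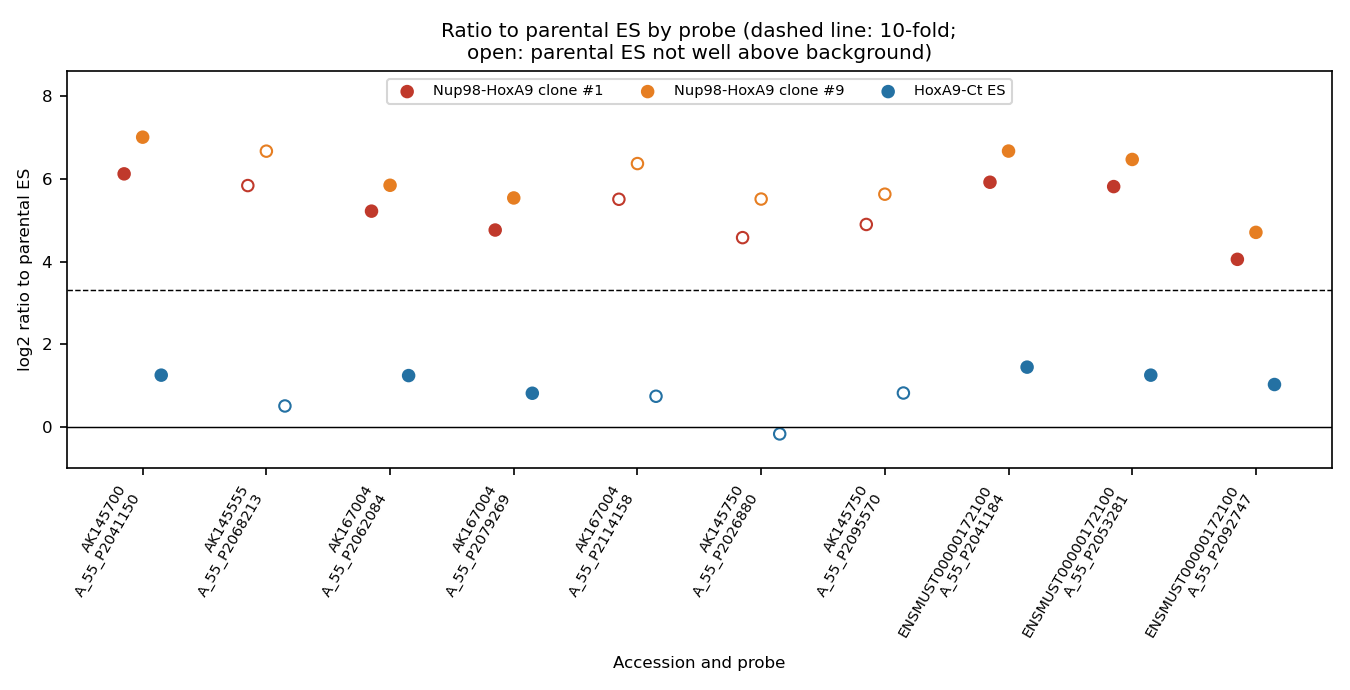
Log2 ratio to parental ES of the 10 member probes in clone #1, clone #9 and HoxA9-Ct ES, 1 point per array; open points mark probes whose parental signal was not well above background, and the dashed line is 10-fold. At the 6 probes with filled points the clones run from 4.05 to 7.01 and HoxA9-Ct ES from 0.81 to 1.45; the open points are ratios to a parental signal near background.

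The difference between the clones was more alike from probe to probe than the ratios to parental ES were. Over the 6 probes that every array called well above background, the log2 ratio ranged from 4.05 to 6.12 in clone #1 and from 4.71 to 7.01 in clone #9, with an SD over probes of 0.80 and 0.85. The difference of clone #9 minus clone #1, which does not use the parental array, ranged from 0.63 to 0.93 over all 10 probes, with a median of 0.76 (a 1.54-fold to 1.91-fold higher signal) and an SD over probes of 0.11 (0.10 over the same 6). The modelled error of this difference was 0.20 to 0.21 for each probe. Over the 26871 probes that were well above background in each clone the median difference was -0.08, with the 5th and 95th percentiles at -0.55 and 0.76. Clone #9 exceeded clone #1 by more than 0.5 at all 10 member probes and at 9.19% of those 26871 probes. Each clone is 1 array, so the difference has no replicate check, and both clones entered the choice of the members. On the same scale it was 0.16 for Hoxa3, -0.32 for Hoxa7 and 0.08 for Hoxa9, homeobox genes of the Hox-A cluster. The log2 ratio of Hoxa7 to parental ES was 7.66 in clone #1 and 7.34 in clone #9, while Hoxa3 and Hoxa9, whose parental signals were not well above background, were at least 131-fold and at least 30.6-fold higher for the mean of the clones.

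HoxA9-Ct ES was the line that the choice of the members did not use. Its comparison with parental ES asks whether the C-terminal HoxA9 part, without the Nup98 repeats, goes with a higher signal. At the 6 member probes well above background on both arrays the HoxA9-Ct signal was the higher one, by a log2 ratio of 1.45 and 1.25 and 1.03 at the Gm3395 probes A_55_P2041184, A_55_P2053281 and A_55_P2092747, 1.24 and 0.81 at the AK167004 probes A_55_P2062084 and A_55_P2079269, and 1.25 at the AK145700 probe. The modelled error of these ratios was 0.20 to 0.33. The ratio exceeded 2-fold at 5 of these 6 probes, and at 0.876% of the 26250 probes well above background on both arrays, whose 5th and 95th percentiles were -0.43 and 0.50. The parental signal enters this ratio and also the choice of the members, and the probes share their arrays, so the 2 shares are set side by side as a description. At A_55_P2114158, only HoxA9-Ct ES was well above background. The measured log2 ratio of HoxA9-Ct ES to parental ES was 0.74 there (1.67-fold), with a modelled error of 0.45.

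In limma, fitted to all 55562 probes with the spread taken from the clones, none of the 10 members was called in HoxA9-Ct ES against parental ES at a Benjamini-Hochberg adjusted p of 0.05 (adjusted p = 1.00 for each, standard error 0.64). The largest log2 ratio of HoxA9-Ct ES to parental ES among the 10 was 1.45, at A_55_P2041184 of Gm3395. The same fit called 0.216% of all probes higher in HoxA9-Ct ES. It gives every probe the same standard error whatever its brightness. With limma's trend and robust options, which let the spread follow the signal, 4 members were called higher, against 0.184% of all probes: A_55_P2062084 (log2 ratio 1.24, standard error 0.25, adjusted p = 0.00124), A_55_P2041184 (1.45, 0.30, adjusted p = 0.00147), A_55_P2053281 (1.25, 0.28, adjusted p = 0.00529) and A_55_P2041150 (1.25, 0.32, adjusted p = 0.0431). Both fits rest on 1 residual degree of freedom and assume that parental and HoxA9-Ct ES vary like the clones. In both, the spread given to a probe is drawn from the other probes. At the 4 called members the clones differed by more than that: their SD was 0.44, 0.53, 0.46 and 0.63, in the order above. Each exceeds the standard error of its call, so the adjusted p-values rest on a spread smaller than the members' own. The parental array, and the clones that give the spread, also entered the choice of the members. The calls are therefore a description of these probes and not an independent test.

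**Figure D3:**
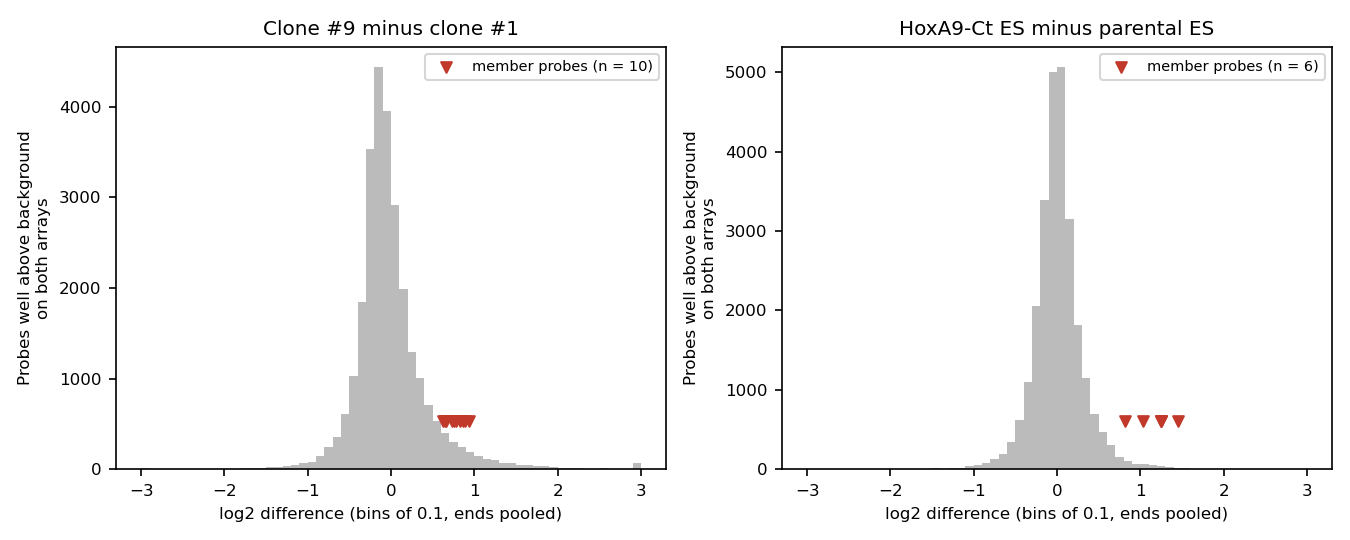
Distribution of the log2 difference between single arrays over all probes well above background on both (grey bars, bins of 0.1, ends pooled), with the member probes well above background on both arrays as red triangles. The 10 members lie between 0.63 and 0.93 for clone #9 minus clone #1, and 6 members lie between 0.81 and 1.45 for HoxA9-Ct ES minus parental ES.

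Set against HoxA9-Ct ES as the reference, 9 of the 10 member probes passed 10-fold in each clone at the measured signals, as did 0.0828% of all probes. The clone signals here are those on which the members were chosen. The choice therefore largely fixes this count and the next, which are a description. With dim HoxA9-Ct values at their bound, a setting added after the values were seen, 7 of the 10 passed, against 0.0468% of all probes: the AK145750 probes then fell short as well. A_55_P2092747 of Gm3395, the exception at the measured signals, was 8.15-fold higher in clone #1 and 12.8-fold higher in clone #9. At the other probes of this transcript the clones were between 22.2-fold and 37.4-fold higher. The clones exceeded HoxA9-Ct ES at least 43.5-fold for AK145555, and for the AK145750 probes at least 8.48-fold and at least 7.46-fold, since HoxA9-Ct ES was not well above background there.

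The likeness of other probes to the members was measured as the Euclidean distance between a probe's log2 ratios to parental ES in clone #1, clone #9 and HoxA9-Ct ES and the median ratios of the members, over probes that were well above background in each clone. The 5 nearest, at 1 probe per accession, were AK166824 (distance 0.25), AK144159 (0.60), the probes A_55_P2124188 (0.63) and A_55_P2155843 (0.67), for which the files give no transcript name, and Hoxa4 (0.97), a homeobox gene of the Hox-A cluster. The parental signals of AK144159, A_55_P2124188 and Hoxa4 were not well above background, so their distances are those of the measured signals and their order is not established. AK166824 was well above background on all 4 arrays at A_55_P2026878, with 85.4 in parental ES, 163 in HoxA9-Ct ES, 3734 in clone #1 and 7234 in clone #9. Its other probe, A_55_P2132993, and the AK144159 probe, A_55_P2068214, had parental signals not well above background. The clone mean was at least 41.4-fold higher at A_55_P2132993. It was 49.4-fold higher at A_55_P2068214 at the measured signals, which is not a lower bound. Clone #9 exceeded clone #1 by 0.77, 0.87 and 0.95 at these 3 probes, a range that overlaps that of the members.

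A_55_P2155843 had 15 in parental ES, 18.2 in HoxA9-Ct ES, 476 in clone #1 and 927 in clone #9, all well above background. Parental ES lacked a signal well above background at A_55_P2124188 and Hoxa4, and the clones exceeded its bound at least 10.7-fold and at least 9.01-fold. Clone #9 exceeded clone #1 by 0.77 at A_55_P2155843, 0.47 at A_55_P2124188 and 0.19 at Hoxa4.

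Probes and cDNAs that stand close to the members in their names, lists drawn up after the ratios were known, did not all move with them. Of 10 other probes numbered within 5 of a member probe, 3 exceeded 10-fold in both clones: those of AK166824 and AK144159 already described, and A_55_P2092745, which has no transcript name and is among the neighbours of the Gm3395 probe A_55_P2092747. It had 28.1 in parental ES, 38.3 in HoxA9-Ct ES, 298 in clone #1 and 642 in clone #9, with log2 ratios of 3.45 and 4.37 in the clones. Of the other 7, 3 were not well above background on any array, and the remaining 4 ran from 0.01 to 0.51 in clone #1 and from -0.42 to 1.46 in clone #9, the highest being Car9, a carbonic anhydrase. Of 13 other probes for AK accessions numbered within 250 of a member cDNA, the 2 probes of AK166824 exceeded 10-fold in both clones, and AK166854 had log2 ratios of 1.93 and 2.92, with 369 in parental ES, 1360 in clone #1 and 3076 in clone #9. Of the other 10, 4 were not well above background on any array, and the remaining 6 lay between -0.22 and 0.67 in clone #1 and between -0.59 and 0.76 in clone #9. Over all 2632 probes of other AK accessions, 4 exceeded 10-fold in both clones at the measured signals, beside 50 of all 55562 probes (0.09%). Of these 4, 3 are the AK166824 and AK144159 probes already described.

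**Figure D4:**
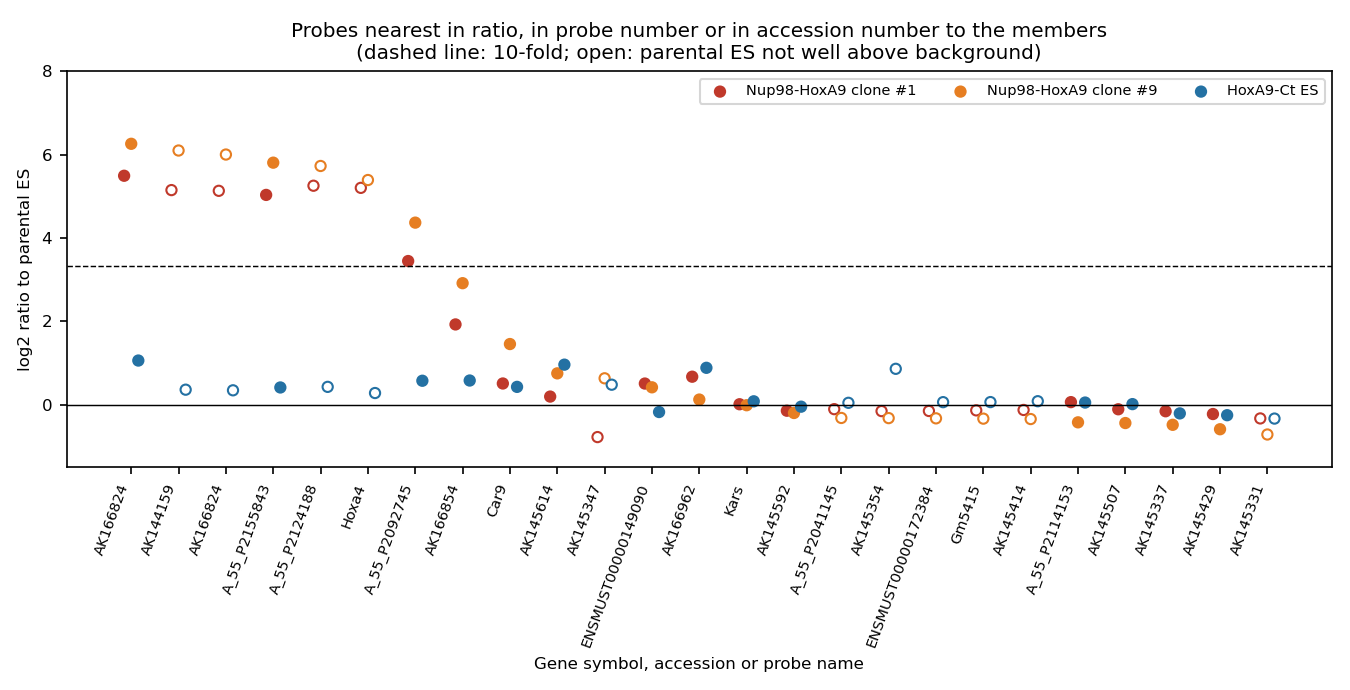
Log2 ratio to parental ES in clone #1, clone #9 and HoxA9-Ct ES (1 array each) of the probes nearest to the members in ratio, in probe number or in accession number; open points mark probes whose parental signal was not well above background, and the dashed line is 10-fold. Among the filled points, 1 AK166824 probe, A_55_P2155843 and A_55_P2092745 lie above the line in both clones and AK166854 lies between 1.93 and 2.92. The open points above the line are ratios to a parental signal near background, and for Hoxa4 the bound of the clone mean, 9.01-fold, is below the line.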

How the data were processed

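Total RNA of the 4 lines was labelled with Cy3 and hybridised to 1 array each, all on 1 slide and in 1 scan. The authors deposited the output of Agilent Feature Extraction 10.10.1.1, per the file headers and the submitters' processing notes, and the intensity used is its processed signal. The authors' value table held the same intensity times 1 constant per array and served as an alternative. Flags of the deposited files (unit other) gave well above background, outlier and saturation calls.

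Control spots and outlier spots were left out, the spots of a probe were averaged, and log2 intensity was centred on each array's 75th percentile. Probes were named by accession, and 26721 of 55562 matched a symbol of the RefSeq table. HoxA9-Ct ES was compared with parental ES in limma 3.58.1 (R 4.3.3) with 3 groups, 2-sided, Benjamini-Hochberg over all probes. The fit without trend and robust options was first run on simulated data. That run set a condition on the median estimates only and none on the calls. The clones gave the only residual degree of freedom, and nothing says that they stand for more than 2 cultures. Array number limits the precision.

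The members and lists were chosen with earlier results of these data known. Named were all member probes, AK166824 and AK144159 as like entries, the 5 nearest accessions by distance, Hoxa3, Hoxa7, Hoxa9 (the brightest probe of each gene) and the markers. The lists near in probe or accession number were added after the values were seen. Array descriptions and coordinates were not used here, so the planned lists of blastocyst library probes and of neighbours in the genome were not made. The planned normexp correction used the median instead of the mean pixel signal.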

Additional observations from a re-analysis of the deposited data

How the results depend on the processing

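No median ratio or clone difference of the members changed sign under any alternative. For the ratios of the clones to parental ES, the choice of the members all but fixed that outcome. The counts have no direction to reverse. With normexp background correction (offset 50) the count of member probes above 10-fold in both clones went from 10 to 5, the median log2 ratio from 5.36 to 3.74 in clone #1 and from 6.11 to 4.57 in clone #9, and limma called 1 member in HoxA9-Ct ES, A_55_P2062084 of AK167004 (adjusted p = 0.00821). The offset adds a constant to every signal and so reduces the ratios of dim probes. With limma's trend and robust options 4 members were called. Under the other alternatives the count above 10-fold was 7 to 10, and it was 10 without either clone. Over all alternatives the median ratio of the members ranged from 3.74 to 5.52 in clone #1, 4.57 to 6.20 in clone #9 and 0.44 to 1.25 in HoxA9-Ct ES, the clone difference from 0.67 to 0.82, and limma's member calls from 0 to 4. Over all probes limma called 225, against 203 with median scaling, 218 with outlier spots kept, 161 with trend and robust, 125 with a floor, 73 with normexp, 18 with the authors' values, and 0 both after quantile normalization (4185 at an unadjusted p under 0.05) and when a probe had to be well above background on any array (992). Quantile normalization moved the median of all probes from -0.10 to -0.00 in clone #1 and from -0.27 to -0.03 in clone #9. Lower bounds and the subset of 6 probes well above background on all arrays were chosen after seeing the data. Without either clone limma has no residual degree of freedom and was not run, and the 5-fold and 20-fold counts of blastocyst library probes were not run. No paired analysis was possible, since each line was measured on 1 array and the labels pair no lines. Signal near background limits 4 of the 10 member probes in parental ES to bounds or, at A_55_P2114158, to a measured fold over a dim signal.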
